A study of Oryza sativa with 39 samples.

Results

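JY63 (Jinyou 63) and its parent MH63 (Minghui 63) were compared by RNA-seq of leaves, with 3 libraries of each line, 6 of the 39 libraries of a study of 13 rice lines. MH63 is a conventionally bred restorer line of the XI subspecies (indica rice), and JY63 is an XI line obtained by crossing MH63 with the variety Jin 23A. Neither line carries a transgene. The libraries were chosen by their titles, because the line field of the JY63 labels reads JY6. All plants were 5 weeks old by the labels and at the tillering stage, and each library was made from leaf sections of 5 pooled plants, so that plants within a pool cannot be told apart. Whether the JY63 plants were first-generation hybrids was not given in the sources used here, and the other parent, Jin 23A, was not analysed here.

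A restorer line carries nuclear genes that bring back pollen fertility in progeny of a cytoplasmic male-sterile mother, and MH63 has been the male parent of many rice hybrids for that reason. A line bred from a cross with a restorer can carry alleles of either parent. Leaves defend themselves with pathogenesis-related proteins, a set of chitinases, glucanases and other small proteins. They also use diterpenoid phytoalexins such as momilactones, whose genes lie together on a chromosome. Jasmonate, a fatty-acid-derived hormone, controls part of this defence and the response to wounding.

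The values were FPKM, that is fragments per kilobase of gene length, scaled to the reads of the library. The reads on genes recovered from them numbered 5078721 to 7174704 in the JY63 libraries and 6463246 to 8318913 in the MH63 libraries. Log2(FPKM + 1) correlated across tested genes at 0.938 to 0.951 between JY63 libraries, at 0.954 to 0.970 between MH63 libraries and at 0.890 to 0.935 between the lines; genes are not independent replicates. JY63 replicate 2 stood apart in hormone-related loci: the summed FPKM of a list of jasmonate loci was 6696 in this library and 1998 and 1368 in the other JY63 libraries, and that of a list of abscisic acid and drought loci was 3649 against 253 and 168. For the jasmonate list, replicate 2 had the highest sum in every XI line of the study, with 5296 in SY63 and 4060 in XXY63. It was not the highest in JH1, KMD1 and T202, lines of the other subspecies. The cause was not tested. Of 4 loci listed as mature leaf markers, 3 were above 0, with a summed FPKM of 3336 to 9145 in the 6 libraries. The listed root, shoot meristem and flower markers summed to at most 0.444 in any of them, the endosperm markers to 1.52 to 4.08 and the markers of dividing cells to 24.6 to 37.1. A value of 0 was not read as silence. Of 228 listed loci, 69 had no value above 0 in any of the 39 libraries, among them 9 of 27 listed for photosynthesis in these green leaves. This count does not separate a value of 0 from an identifier absent from the values, and the list identifiers were not checked. Loci with a value of 0 are described below as listed at 0.

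JY63 and MH63 differed at 471 of 11309 tested reference loci (4.16%), those of the IRGSP-1.0 annotation with identifiers such as OS12G0553050. Of these 335 were higher in JY63, or 2.96% of the reference loci tested, and 136 were lower, or 1.2%. A difference was called from an adjusted p-value below 0.05 (limma, Benjamini-Hochberg over all genes tested) together with a change of 2-fold or more in either direction. Across all 20627 identifiers tested, with predicted genes and Ensembl Plants identifiers included, 1141 or 5.53% were called, 740 higher (3.59%) and 401 lower (1.94%). In whole leaves, fewer cells of a type and less RNA per cell cannot be told apart.

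The increases were larger than the decreases. Among the loci higher in JY63, 63 of 335 had a log2 fold change of 3 or more and the median was 1.76. Among the loci lower in JY63, 5 of 136 fell by that much and the median was -1.34. The mean FPKM of the higher line had a median of 7.65 for the increases and 11.01 for the decreases. The number of called reference loci changed with the library left out when the same loci were tested, an alternative chosen after seeing the data. It was 272 without JY63 replicate 1, 319 without JY63 replicate 2 and 557 without JY63 replicate 3, against 471 with all libraries. It was 272 without MH63 replicate 1, 296 without MH63 replicate 2 and 289 without MH63 replicate 3. The higher loci were between 69.9% and 78.7% of the calls in these 6 fits, against 71.1% with all libraries. When the filter on low values was applied again to the 5 libraries left, the share was 53.5% without JY63 replicate 2, 58.8% without JY63 replicate 3 and 67.9% without JY63 replicate 1.

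**Figure D1:**
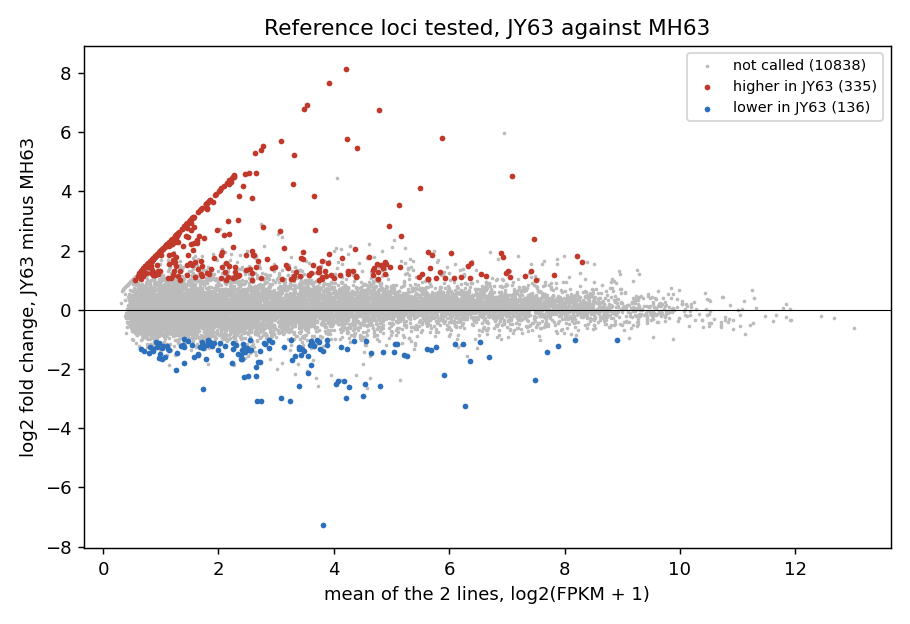
Each point is 1 of the 11309 tested reference loci, with the mean of both lines in log2(FPKM + 1) on the x axis and the log2 fold change (JY63 minus MH63) on the y axis. The 335 red points (higher in JY63) reach a log2 fold change of 8.14, while 113 of the 136 blue points (lower) lie between -1 and -2 and 1 point is at -7.28.

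The locus with the largest increase was OS12G0553050. Its FPKM was 261, 379 and 302 in JY63 and 0, 0.341 and 0 in MH63. All 3 JY63 libraries rested on at least 647 reads and no MH63 library on more than 1, so that JY63 was at least 376-fold higher (against 3 reads in each MH63 library; adjusted p = 7.56e-06 by limma). In the 33 libraries of the other 11 lines, OS12G0553050 did not exceed 1.46, so none of them came near the JY63 level. OS12G0435200 was at 181, 206 and 265 in JY63 and at 0.0609, 0 and 0.113 in MH63, at least 1096-fold higher in JY63 (adjusted p = 5.38e-06 by limma). Its mean was 261 in SY63, another line bred from MH63, and 21.6 in XIY63, while the remaining lines were at 1.9 or less.

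Other large increases were at loci with still higher means in lines of the GJ subspecies (japonica rice). OS11G0471100 had 93.2, 140 and 159 FPKM in JY63 and 0.168, 0 and 0 in MH63, at least 238-fold higher (adjusted p = 2.34e-05 by limma). It stood at a mean of 305 to 447 in 5 of the 6 GJ lines and at 0.9 in the sixth, CJ03. No other XI line had a mean above 0.9, so that JY63 stood alone among the XI lines, below those 5 GJ lines. OS03G0843800 rose from 1.29, 1.72 and 2.07 in MH63 to 194, 385 and 311 in JY63. This was a 175-fold difference of means (log2 fold change 6.74 ± 0.27 SE, adjusted p = 5.18e-05 by limma). The 6 GJ lines had means of 486 to 977, and SY63 and XIY63 had 566 and 431, while XXY63 had 1.87. OS03G0722200 was at 145, 132 and 132 in JY63 against 0.776, 2.32 and 1.80 in MH63, or 136 ± 7.57 against 1.63 ± 0.785 (SD, n = 3 libraries each), an 83.7-fold difference. The GJ means of this locus were 234 to 389, and those of SY63, XIY63 and XXY63 were 141, 83.6 and 103.

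The 12 largest increases among loci with a mean FPKM of at least 5 in the higher line and no overlap between the lines spanned log2 fold changes of 5.28 to 8.14. Besides those described they were OS11G0429900, OS04G0364800, OS05G0404901, OS09G0116600, OS01G0959750, OS09G0325300 and OS02G0269650. OS04G0364800 was the most uneven. It read 37.0 in MH63 replicate 1 and 2.86 and 2.39 in the other MH63 libraries, against 667, 376 and 332 in JY63, and its adjusted p went from 0.0125 to 0.0629 by limma without JY63 replicate 1, with the same loci tested. The other 11 stayed called in each of the 6 fits with a library left out and the same loci tested. Several of them, such as OS12G0553050 and OS09G0116600, passed the filter on low values only through JY63. With the filter applied again, these could be tested in only 3 of the 6 fits. All were also chosen for a call and no overlap, so the calls that stayed add no independent support. Of the 12 loci, 10 also had a mean of at least 5 in SY63, 7 in XIY63 and 7 in XXY63, the other lines crossed with MH63, but 1 in T1C-19 and 0 in HH1, which were made from MH63 by transformation with an insecticidal gene. Means of at least 5 were found in all 6 GJ lines for 6 of the loci and in no GJ line for 4.

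OS11G0562100 had the largest decrease and was the only one of its size. It was at 159, 166 and 200 FPKM in MH63 and at 0.0570, 0.208 and 0.115 in JY63, which rests on 1, 4 and 3 reads. The log2 fold change was -7.28 ± 0.15 (SE, adjusted p = 3.66e-06 by limma), and the means, 175 and 0.127, differed 1379-fold. This locus was not low in JY63 alone. SY63 had a mean of 0.1, HH1 of 0.8 and XXY63 of 3.4, while T1C-19, XIY63 and the 6 GJ lines had means of 101 to 208. The neighbouring tested locus, OS11G0562266, was also lower in JY63, listed at 0 in its 3 libraries against 1.58, 1.40 and 1.47 in MH63 (adjusted p = 0.0376 by limma), a call lost in 5 of the 6 fits with a library left out and the same loci tested.

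The next decrease was OS01G0382000, with 17.0, 35.6 and 23.3 FPKM in JY63 and 305, 336 and 135 in MH63. The log2 fold change was -3.26 ± 0.40 (SE, adjusted p = 0.00544 by limma). OS07G0443500 was at 0.735, 2.01 and 0.992 in JY63 and 12.5, 33.9 and 12.3 in MH63 (-3.08 ± 0.41, adjusted p = 0.00755 by limma). OS01G0940700 was at 7.20, 5.51 and 4.27 in JY63 and 66.9, 76.1 and 25.98 in MH63 (-2.99 ± 0.40, adjusted p = 0.0076 by limma). In each of these loci MH63 replicate 3 was the lowest MH63 library, as it was in 11 of the 12 largest decreases. It was still above every JY63 library, which the choice of loci without overlap required.

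The remaining 8 of the 12 decreases had log2 fold changes between -3.07 and -2.57. They were OS07G0129200, OS10G0570700, OS11G0539500, OS12G0555300, OS04G0179200, OS01G0584900, OS10G0570200 and OS01G0713200. Fewer of the 12 decreases stayed called than of the 12 increases, whose log2 fold changes were mostly larger. With the same loci tested, 4 of the 12 decreases stayed called in each of the 6 fits with a library left out. These were OS11G0562100, OS01G0382000, OS07G0443500 and OS01G0940700. OS04G0179200 was not called by voom on the recovered reads, and its adjusted p, 0.0345 by limma, ranged from 0.000291 to 0.0921 over the alternatives with all libraries. Without MH63 replicate 2, 7 of the 12 were no longer called, and 6 were not called without a filter on low values.

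**Figure D2:**
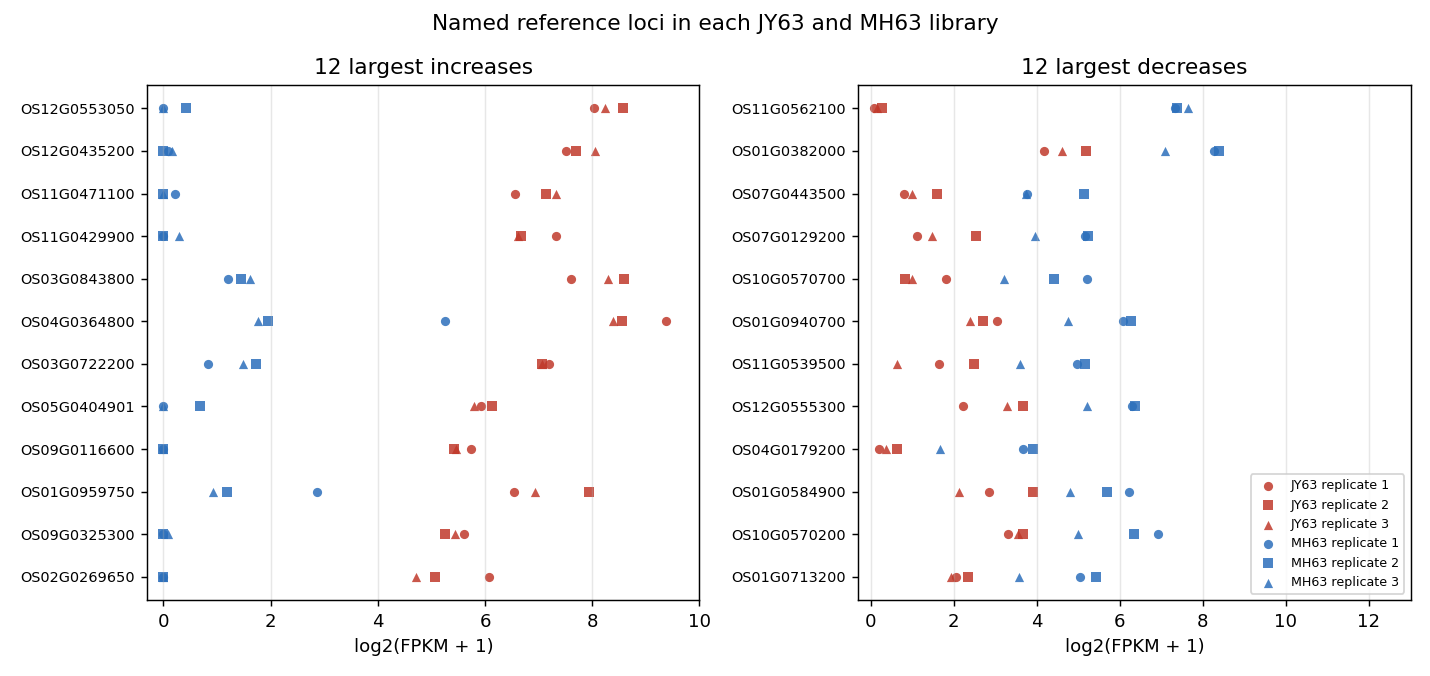
Level of the 12 largest increases (left) and 12 largest decreases (right) in each library, in log2(FPKM + 1); red marks are the 3 JY63 libraries and blue marks the 3 MH63 libraries. The lines do not overlap at any of the 24 loci, which the choice of the loci required, and MH63 replicate 3 (blue triangles) is the lowest MH63 library in 11 of the 12 decreases.

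**Figure D3:**
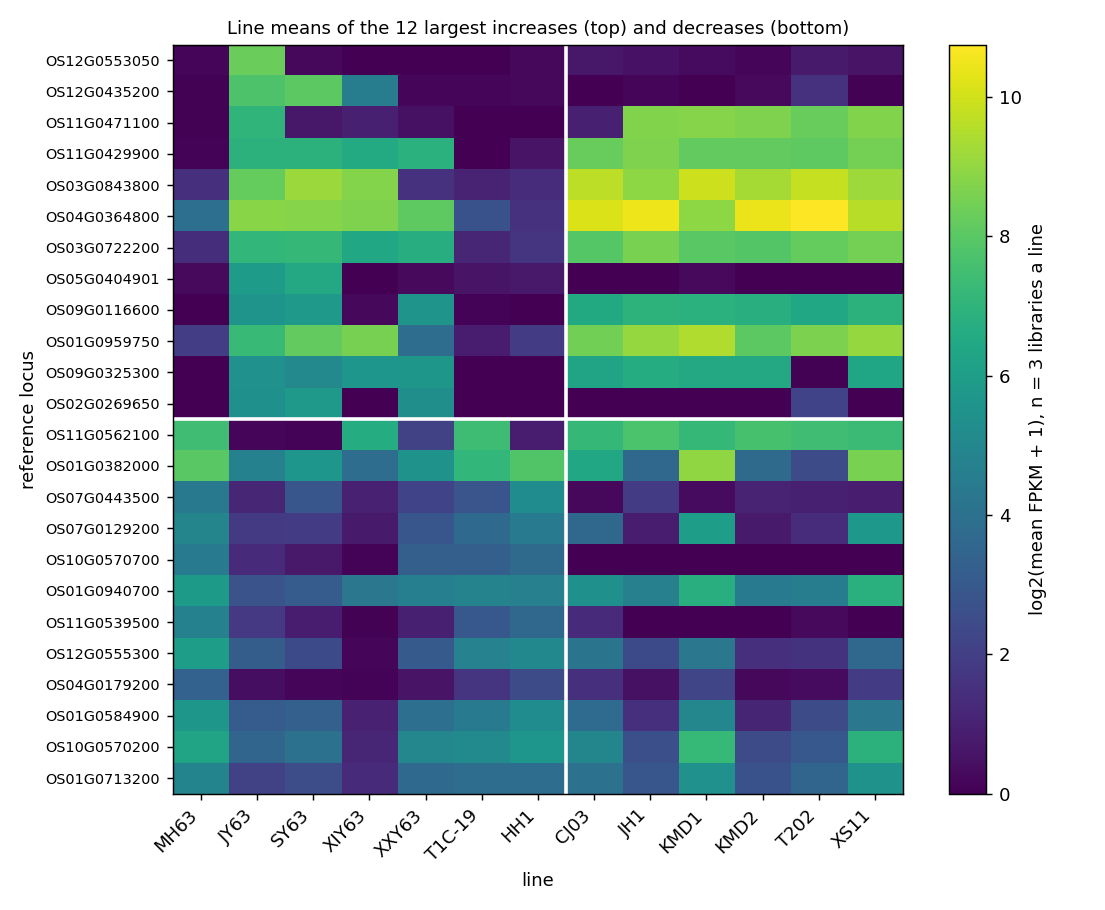
Mean level of the same 24 loci in the 13 lines (colour, log2 of mean FPKM + 1, n = 3 libraries a line), with the 7 XI lines left of the white line and the 6 GJ lines right of it. OS12G0553050 in the top row is above 1.46 FPKM in JY63 alone, whereas 10 of the 12 increases have a mean of at least 5 in SY63 as well.

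Changed loci lay on all 12 chromosomes, read from the digits after OS in the identifier. Chromosome 11 had the highest share in both directions, with 42 of 619 tested loci higher in JY63 (6.79%) and 16 lower (2.58%). On the other chromosomes the share of higher loci was between 1.83% and 4.14% and that of lower loci between 0.74% and 1.85%. Locus numbers follow the order along the chromosome, and among the increases there were 25 runs of 2 and 7 runs of 3 successive tested loci. Among the decreases there were 6 runs of 2, a run of 3 from OS10G0490800 to OS10G0491000 and a run of 4 from OS12G0555000 to OS12G0555500, the longest of all, in which the log2 fold changes were -2.90 to -2.21. Loci of 1 run can be copies of each other that share reads, and such values are uncertain.

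At 102 reference loci, JY63 had an FPKM of at least 1 in each library and MH63 was listed at 0 in each library. The mirrored set, read in MH63 and listed at 0 in JY63, held 2 loci. The 102 loci had mean levels of 1.17 to 45.9 in JY63 with a median of 4.98, and 80 of them had at least 10 reads in every JY63 library. They were found on every chromosome, with 19 on chromosome 11, 12 each on chromosomes 1 and 9, and between 4 and 9 on the others. The tested reference loci numbered 619 on chromosome 11, 1601 on chromosome 1 and 628 on chromosome 9. With each library left out the count lay between 108 and 125. Leaving out a library removes a condition, so the count could not fall below 102 and this does not test the set.

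The highest of the 102 was OS09G0116600, with 52.6, 41.9 and 43.1 FPKM in JY63 from 180 to 250 reads a library. Against 3 reads in each MH63 library it was at least 86.8-fold higher (adjusted p = 2.34e-05 by limma). OS02G0269650 followed with 66.3, 32.5 and 25.2, at least 56.0-fold higher. It was listed at 0 in 25 of the 33 libraries of the other lines and had means of 55.0 in SY63 and 40.1 in XXY63. The other highest 3 were OS12G0628100 (48.7, 14.4 and 15.3), OS12G0281966 (40.4, 21.6 and 12.4) and OS06G0365700 (16.2, 27.5 and 22.6). In the first 2 of these JY63 replicate 1 was the highest library. All 5 were called in each fit with a library left out and the same loci tested. They were chosen for reads in every JY63 library and 0 in MH63, which favours such calls. The p-value and the calls therefore add no independent support.

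These loci were not confined to JY63. Of the 102, 94 were above 0 in all 3 libraries of at least 1 of SY63, XIY63 and XXY63, 42 were so in all 3 of these lines, and 75 were so in at least 1 GJ line. In T1C-19 or HH1, the transformed lines of MH63, 6 were. Not one of the 102 was listed at 0 in all 33 libraries of the other lines. When each XI line was set against the same MH63 libraries, the loci read in the line and listed at 0 in MH63 numbered 103 for SY63, 124 for XIY63 and 97 for XXY63, but 17 for T1C-19 and 10 for HH1. The mirrored counts were 5, 35, 1, 0 and 7. These comparisons share the MH63 libraries, and the HH1 libraries were the shallowest at 3989848 to 4349926 reads.

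**Figure D4:**
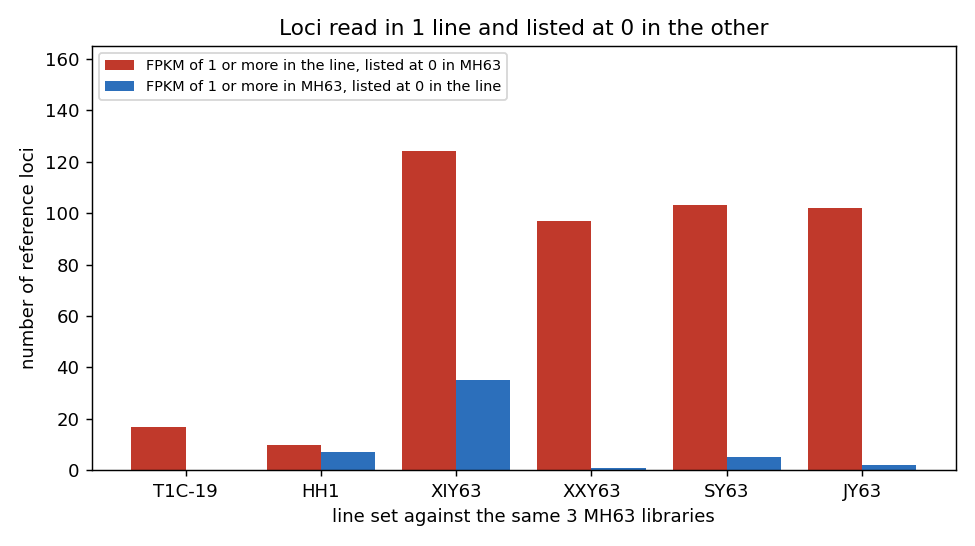
Number of reference loci with an FPKM of at least 1 in the 3 libraries of a line and listed at 0 in the 3 MH63 libraries (red), and the reverse (blue), for the 6 XI lines related to MH63. JY63 has 102 and 2; the 4 crossed lines have 97 to 124 red loci and T1C-19 and HH1 have 17 and 10.

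Reads in JY63 and in no other line were rare. Only 4 identifiers were above 0 in all 3 JY63 libraries and at 0 in the other 36, a single reference locus among them. That locus, OS02G0536601, was at 1.39, 3.96 and 0.820 FPKM from 7 to 25 reads, and its difference from MH63 did not pass the test (log2 fold change 1.48 ± 0.42 SE, adjusted p = 0.077 by limma).

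The 2 loci of the mirrored set were low. OS11G0164900 had 1.38, 1.31 and 2.39 FPKM in MH63 from 5 to 13 reads, and OS11G0562266 had 6 to 9 reads. OS11G0164900 passed the test with all libraries (adjusted p = 0.0411 by limma) and in 0 of the 6 fits with a library left out and the same loci tested. Against 3 reads in each JY63 library they were at least 2.11-fold and 2.07-fold higher in MH63. With at least 10 reads asked for in each library, 0 loci were left in the mirrored set.

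Pathways were read from 19 lists with 228 reference loci, of which 109 were tested. List membership came from general knowledge of rice locus identifiers, and neither the deposited values nor the gene table at hand pairs these identifiers with names, so a list is described as a whole and no function is given to a single locus. Over all lists 2 loci rose and 8 fell, against 2.96% and 1.2% of all reference loci tested, and 15 of the 19 lists had no called locus. The median log2 fold change over all tested reference loci was 0.06.

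RNA of 5 loci listed for pathogenesis-related proteins fell in JY63. Of 12 listed loci 9 were tested, 5 fell, 0 rose and 4 did not pass, with a median log2 fold change of -2.37. Some of the 5 are among the 12 largest decreases named above. The rest lie in the run of lower loci on chromosome 12, whose members can share reads. The list is therefore not a separate finding from those decreases. The summed FPKM of the list was 469, 281 and 265 in JY63 and 1270, 1205 and 650 in MH63, so the lines did not overlap. The most abundant locus that fell had 57.6, 101 and 80.3 FPKM in JY63 against 576, 436 and 263 in MH63, a 5.33-fold difference of means (log2 fold change -2.37 ± 0.32 SE, adjusted p = 0.00789 by limma). The largest of the 5 differences of means was 11.1-fold and the smallest 5.08-fold. A sixth locus, at 3.70, 3.12 and 7.31 in JY63 and 65.0, 10.8 and 42.9 in MH63, did not pass (adjusted p = 0.0516 by limma), and of the 3 others 1 was at 352, 88.3 and 127 in JY63 against 41.6, 114 and 102 in MH63. Between 3 and 5 loci of the list were called lower when a library was left out with the same loci tested, 3 of them without JY63 replicate 1, where 1 was called once the filter was applied again. The list summed to 208 to 464 on average in SY63, XIY63 and XXY63, and to 742 in HH1 and 840 in T1C-19. Libraries of a single GJ line could differ more than JY63 and MH63 did. The sum ran from 423 to 2529 in XS11 and from 604 to 2690 in KMD1, but from 746 to 787 in T202.

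Of 21 loci in the 3 lists for diterpenoid phytoalexins 6 were tested, and 3 of them fell in JY63. Of 6 loci of the momilactone cluster of chromosome 4, 3 were tested and 2 fell, with a median log2 fold change of -1.80. The summed FPKM of the cluster was 1.01, 1.48 and 1.34 in JY63 and 22.4, 23.8 and 4.69 in MH63. MH63 replicate 3 lay between the JY63 libraries and the other MH63 libraries, and neither decrease was called by voom, without a filter on low values, or in 5 of the 6 fits with a library left out. Without MH63 replicate 3, all 3 tested loci were called lower. Of 9 loci of the phytocassane cluster of chromosome 2, 3 were tested and 1 fell, from 2.22, 2.66 and 1.20 FPKM in MH63 to 0.113, 0.103 and 0.152 in JY63 (log2 fold change -1.40 ± 0.24 SE, adjusted p = 0.0194 by limma). The other 2 tested had log2 fold changes of -0.16 and -0.32 and did not pass (adjusted p = 0.661 and 0.626 by limma). The call of the phytocassane locus was lost without JY63 replicate 1 or 2 or MH63 replicate 1 or 2, with the same loci tested. With replicate number added to the model as a block, 0 loci of either cluster were called.

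Loci of light harvesting, photosystems and Rubisco, the machinery that captures light and fixes carbon, did not move together. Of 27 listed loci 12 were tested, 2 rose and 0 fell, and the median was -0.09. One of the 2 had 1381, 347 and 564 FPKM in JY63 and 129, 21.4 and 6.75 in MH63 (log2 fold change 4.52 ± 0.999 SE, adjusted p = 0.0408 by limma), a call that was lost with the default variance trend, without a filter on low values and in 5 of the 6 fits with a library left out. It stood at means of 1244 to 3635 in the GJ lines, 567 to 844 in SY63, XIY63 and XXY63, and 4.6 and 16.5 in T1C-19 and HH1. The other had 23.2, 7.05 and 8.39 in JY63 and was listed at 0 in MH63 (adjusted p = 0.00425 by limma). The list's summed FPKM, 5707 to 12874 in JY63 and 7598 to 14120 in MH63, overlapped.

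Jasmonate loci (synthesis, receptors and JAZ repressors, the proteins that hold the response back) had a median log2 fold change of 1.22, and 10 of the 11 tested were positive, yet 0 of them passed the test by limma or by voom and 2 had an unadjusted p below 0.05. JY63 replicate 2 was the highest of the 6 libraries for 9 of the 11, as it was for 24.4% of all tested reference loci. Without this library the median was 0.26 and 0 were called, while without JY63 replicate 3 it was 1.69 and 2 were called higher. The summed FPKM was 1368, 1998 and 6696 in JY63 and 1140 to 1191 in MH63, and SY63 had 3273 to 5296. In the abscisic acid and drought list 7 of 11 tested loci were likewise highest in JY63 replicate 2, the median was 0.50 with this library and 0.05 without it, and 0 passed by limma or voom, 2 at an unadjusted p below 0.05. With the same loci tested and JY63 replicate 2 left out, 319 reference loci were called over the whole comparison.

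No locus was called in the remaining lists with all libraries; without JY63 replicate 2, with the same loci tested, 1 phenylpropanoid locus was called lower. WRKY factors, regulators of defence genes, had a median of 0.52 over 9 tested loci, heat shock loci of 0.67 over 4, and MAP kinase and ethylene signalling of 0.34 over 8. At an unadjusted p below 0.05 these lists held 2, 1 and 0 loci. Without JY63 replicate 2 the medians were -0.32, 0.42 and 0.15, so the sign of the WRKY median turned. This library was the highest for 8 of the 9 WRKY loci, whose list summed to 3362 FPKM in it and to 1089 and 735 in the other JY63 libraries, against 585 to 675 in MH63. Medians of the phenylpropanoid, heading date, nitrogen, iron, gibberellin, sugar, and catalase and ascorbate peroxidase lists were between -0.25 and 0.17. Each of these 7 lists held between 0 and 3 loci at an unadjusted p below 0.05. Of a circadian clock list 2 of 10 loci were tested, of a phosphate starvation list 1 of 12 and of the other diterpenoid loci 0 of 6, and voom called 0 loci in any list of this paragraph.

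**Figure D5:**
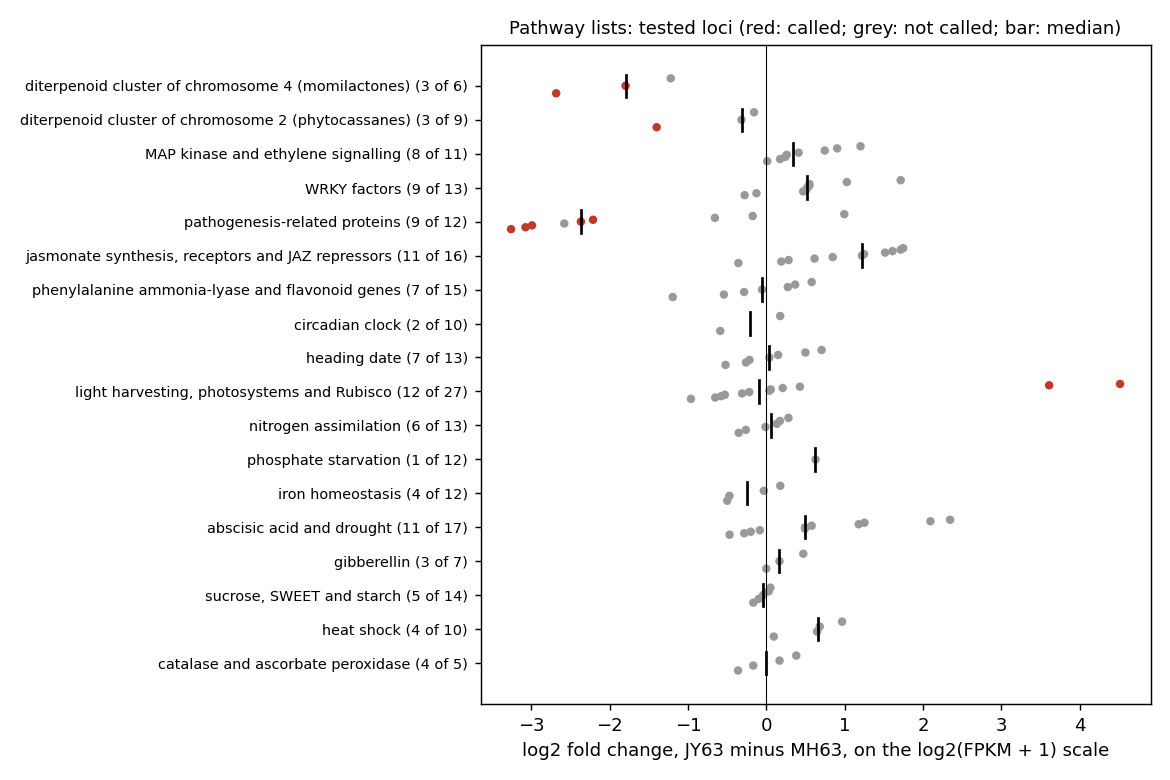
Log2 fold change (JY63 minus MH63) of each tested locus by list, with the number tested of the number listed in brackets; red points were called, grey points were not, and black bars are list medians. The 5 red points at -3.26 to -2.21 are the pathogenesis-related loci, the 2 at 3.61 and 4.52 belong to the photosynthesis list, and the jasmonate points lie mostly right of 0 without a call.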

How the data were processed

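Total RNA of the leaf pools was sequenced after NEBNext Ultra library preparation. The authors aligned clean reads to IRGSP-1.0 with HISAT2 2.09, counted them per gene with featureCounts 1.5.0-p3 and deposited FPKM values, 1 set per library. Strand was not given in the sources used here, so reads of overlapping and antisense genes cannot be told apart, and how reads shared by genes were handled was not stated. FPKM values stood in whole-number ratios between libraries, from which reads were recovered; 99.989% of 1036152 values above 0 came out whole within 0.01 reads.

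Log2(FPKM + 1) was tested with limma 3.58.1 in R 4.3.3 for genes reaching 0.5 FPKM in 3 or more of the 6 libraries, with a variance trend over mean log2 reads. A pseudocount of 1 understates changes of low genes. Named loci are the 12 largest increases and decreases among called reference loci with a mean of at least 5 and no overlap, called list members (given without identifiers), and the highest loci read in 1 line and listed at 0 in the other. Lower bounds use 3 reads per library and cover counting error only. Members and lists were chosen with earlier results of these data known. Planned lists by family description were not used here, since no table at hand describes the loci. Alternatives were a pseudocount of 0.1, other filters, the default trend, voom, all 21 XI libraries, plain read totals, the replicate block, no minimum fold change and each replicate left out. Python 3.11.15, numpy 2.4.6, pandas 2.3.3 and matplotlib 3.10.9 were used.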

Additional observations from a re-analysis of the deposited data

How the results depend on the processing

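Called identifiers numbered 1141 (740 higher, 401 lower; reference loci 471, 335 and 136). Replicate numbers are shared by both lines, but deviations of same-numbered libraries correlated at -0.166, 0.023 and 0.086, so the numbers were not taken as pairs; not every library correlated best with its own number. With the replicate block 637 were called (454 higher, 183 lower; reference loci 284, 208 and 76). Leaving out 1 replicate gave 114 to 794 calls, 66 to 484 higher and 48 to 487 lower, and 53 to 347 reference loci, 36 to 214 higher and 17 to 143 lower. The majority turned without JY63 replicate 2 (105 higher, 123 lower) and without JY63 replicate 3 (307 higher, 487 lower), which left 46.1% and 38.7% of the calls higher, against 64.9% with all libraries. A locus listed at 0 in MH63 cannot pass the filter of 3 libraries once a JY63 library is gone. With the same loci tested, chosen after seeing the data, the ranges were 636 to 1351 calls, 463 to 757 higher and 147 to 594 lower, and 272 to 557 reference loci, at most 395 higher and 58 to 162 lower. Without a minimum fold change there were 686 lower calls and 723 reference loci, 254 of them lower. Without a filter 255 calls were lower, 72 at reference loci, and with a pseudocount of 0.1 the lower reference loci were 206. The loci read in MH63 and listed at 0 in JY63 were 2, but 0 with at least 10 reads. They were 6 with at most 1 read allowed and 2 to 8 with a replicate left out, changes that relax the rule and cannot lower the count. The cause of these shifts, beyond the filter, was not tested. No named value changed sign. Of the called list members 4 of 10 stayed called in every alternative with all libraries other than the block and in every fit with a library left out and the same loci tested. Depth limits loci with few reads.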
